A study of Caenorhabditis elegans with 6 samples.

Results

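The proteasome subunit genes of *C. elegans* were followed in RNA-Seq libraries of whole worms. All genes whose symbol starts with pas-, pbs-, rpt- or rpn- were taken, which gave 33 of the 46739 genes in the count table. Of these, 14 encode the core particle (7 pas genes for the alpha rings and 7 pbs genes for the beta rings). The other 19 encode the regulatory particle (6 rpt genes for its ATPase ring, 4 rpn genes for the non-ATPase part of its base, and 9 rpn genes for its lid). All 33 passed the filter on low counts. The choice used the symbols and no measured value.

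The proteasome is the protease that removes most short-lived and damaged proteins of a cell, which are marked for it with chains of ubiquitin. Its core particle is a barrel of stacked rings. The outer alpha rings form the gate and the inner beta rings hold the proteolytic sites. The regulatory particle sits on the barrel, where the lid and the base bind and remove ubiquitin and the ATPase ring unfolds the substrate and threads it through the gate. In *C. elegans* the transcription factor SKN-1A raises the expression of proteasome genes when proteasome function falls short, after it has been processed by the peptide N-glycanase PNG-1 and the protease DDI-1.

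There were 6 libraries, each from a lysate of many pooled worms of the wild-type strain Bristol N2, kept at 20 °C. For 3 libraries the worms were fed bacteria with the empty RNAi vector L4440. The other 3 libraries carry the label Y37A1B.5 RNAi. In both groups this feeding ran from young adulthood for 5 days, after growth on *E. coli* OP50. RNAi by feeding acts in the whole animal and less well in neurons. Since whole worms were lysed, a library is an average over all tissues. Fewer cells of a type and less RNA per cell cannot be told apart in it. Libraries held 34403223 to 46733527 counts. Of 15003 genes tested with edgeR, 722 were higher and 1328 were lower in the labelled libraries at the adjusted p threshold of 0.05, or 35.2% higher. That split was 487 to 1557 with upper-quartile factors and 1208 to 1299 with DESeq2. The labelled replicate 3 stood apart, with a median absolute difference per gene of 0.20 and 0.18 (log2 CPM) from labelled replicates 1 and 2. The same measure was 0.10 between labelled replicates 1 and 2 and lay between 0.10 and 0.14 among the controls.

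The targeted gene went against the label. Y37A1B.5, now named *semo-1*, which encodes a selenium-binding-protein-like methanethiol oxidase, had 1126, 1295 and 792 counts in the control libraries and 4833, 3519 and 4189 counts in the libraries labelled Y37A1B.5 RNAi. As CPM (counts relative to the library total, after TMM scaling) these were 30.2 ± 7.36 and 109 ± 32.1 (SD, n = 3), and the groups did not overlap. The log2 fold change was 1.85 with an SE of 0.22 and an adjusted p of 0.000834 by edgeR. An exact two-sided permutation test gave p = 0.1, the smallest it can give with 3 libraries in each group. The count does not separate mRNA of the worms from RNA of the RNAi construct. Every direction given here is therefore that of the libraries labelled Y37A1B.5 RNAi, against L4440.

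Proteasome genes were expressed within a narrow range, with 1 exception. In the controls the median level over the 33 genes was 179 CPM per kb of exon. The core genes lay between 159 (*pbs-5*) and 264 CPM per kb (*pas-3*), and the ATPase genes between 118.7 (*rpt-6*) and 220 CPM per kb (*rpt-2*). The non-ATPase base genes lay between 114 (*rpn-13*) and 157 CPM per kb (*rpn-1*), and 8 of the 9 lid genes between 136 (*rpn-6.1*) and 222 CPM per kb (*rpn-9*). The exception was *rpn-6.2*, a second gene for the lid subunit RPN-6, at 9.56 ± 0.85 CPM per kb beside 136 ± 1.76 for *rpn-6.1*. These 2 genes are paralogs, so that reads from stretches they share may have been lost or split. Control libraries differed little among themselves. The median coefficient of variation of a member was 2.28% in the controls, against 7.39% over all genes tested, and 8.09% in the labelled libraries, against 9.96%. The counting error alone was 0.75% to 1.48% for all members but *rpn-6.2*, for which it was 4.35%.

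**Figure D1:**
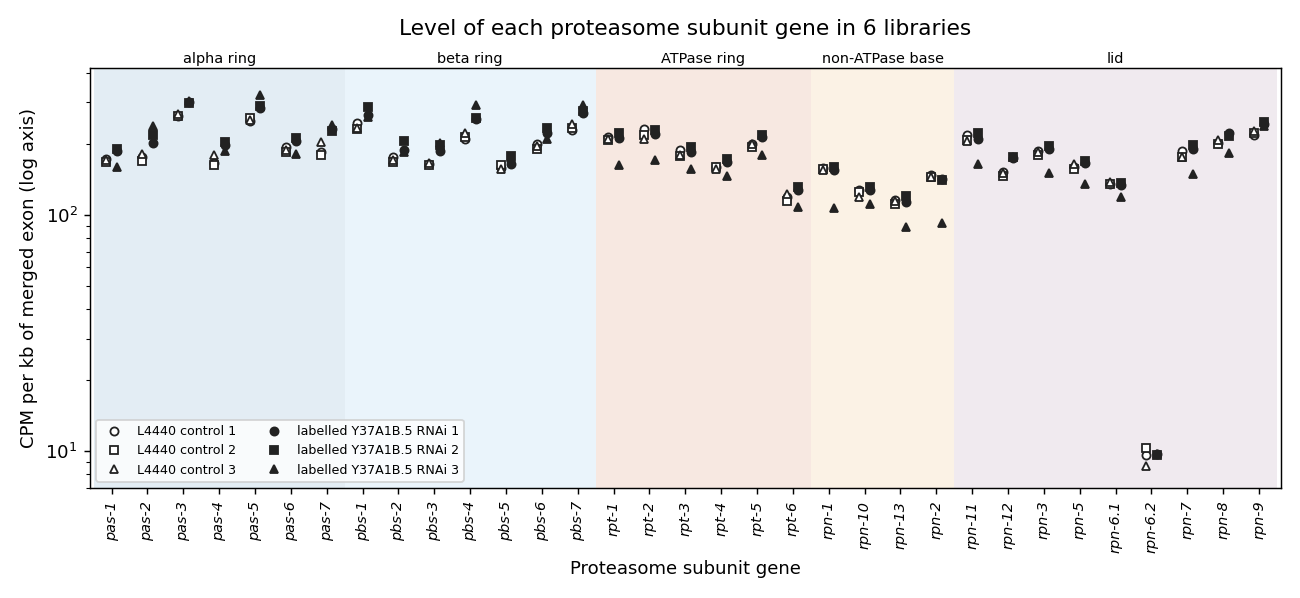
Level of each of the 33 proteasome subunit genes in each of the 6 libraries, in CPM per kb of merged exon on a log axis, with open symbols for L4440 and filled symbols for the libraries labelled Y37A1B.5 RNAi. Apart from *rpn-6.2* at 9.56 CPM per kb in the controls, the genes lie close together, and the filled triangles of labelled replicate 3 are the lowest points for 16 of the 19 regulatory particle genes. The share of all genes tested that were lowest in that library was not computed.

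All 14 core particle genes had a fold change above 1 in the libraries labelled Y37A1B.5 RNAi, and 5 of them passed the test, while 1 of 19 regulatory particle genes did. With edgeR, 6 of the 33 members were differentially expressed, all of them higher: *pas-2*, *pas-7*, *pbs-3*, *pbs-4*, *pbs-7* and *rpn-12*. Over all genes tested the share called higher was 4.81%. None was called lower, against 8.85% of all genes. None was lower at an unadjusted p under 0.05, where 2823 of the 15003 genes tested were. DESeq2 called none lower either, where it called 1299 of the 12238 genes for which it gave an adjusted p. At an unadjusted p under 0.05, 12 members were higher, 11 of them in the core particle, where 14.3% of all genes were. DESeq2 called 11 members higher, where it called 9.87% of the genes for which it gave an adjusted p. These were the 6 above with *pas-3*, *pas-4*, *pas-5*, *pbs-1* and *pbs-6*. The median log2 fold change was 0.21 over the 14 core genes and -0.02 over the 19 regulatory genes, of which 7 were above 0. It was -0.03 over all genes tested. The difference between core and regulatory genes itself was not tested.

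The number of members called depended on single libraries. Without labelled replicate 3 it was 15, all higher, beside 7.89% of all genes: 13 of the 14 core genes (not *pbs-5*), *rpn-9* and *rpn-12*. It was 0 without control replicate 1 and 0 without control replicate 2, where the share of all genes called higher also fell, to 1.42% and 1.52%. It was 2 without control replicate 3 (4.36% of all genes), 3 without labelled replicate 1 (3.49%) and 1 without labelled replicate 2 (2.67%). At an unadjusted p under 0.05, 8 members were higher without control replicate 1 and 7 without control replicate 2, beside 8.98% and 9.03% of all genes. DESeq2 was not run on these subsets. With all libraries and a block for the replicate number, 3 members were called (*pas-2*, *pas-7* and *pbs-4*), beside 1142 of 15003 genes called higher. The edgeR adjusted p was then 0.0534 for *pbs-3*, 0.0555 for *pbs-7* and 0.0582 for *rpn-12*. In each of the 15 alternatives run, which share most of their libraries, all 14 core genes had a log2 fold change above 0. Of the 19 regulatory genes, 3 were above 0 without labelled replicate 2 and 17 without labelled replicate 3. With the length trend removed and labelled replicate 3 left out, 18 were above 0. *pbs-4* was called in 13 of the 15 alternatives, *pas-2* and *pas-7* in 11, *pbs-3* in 8, and *pbs-7* and *rpn-12* in 7.

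**Figure D2:**
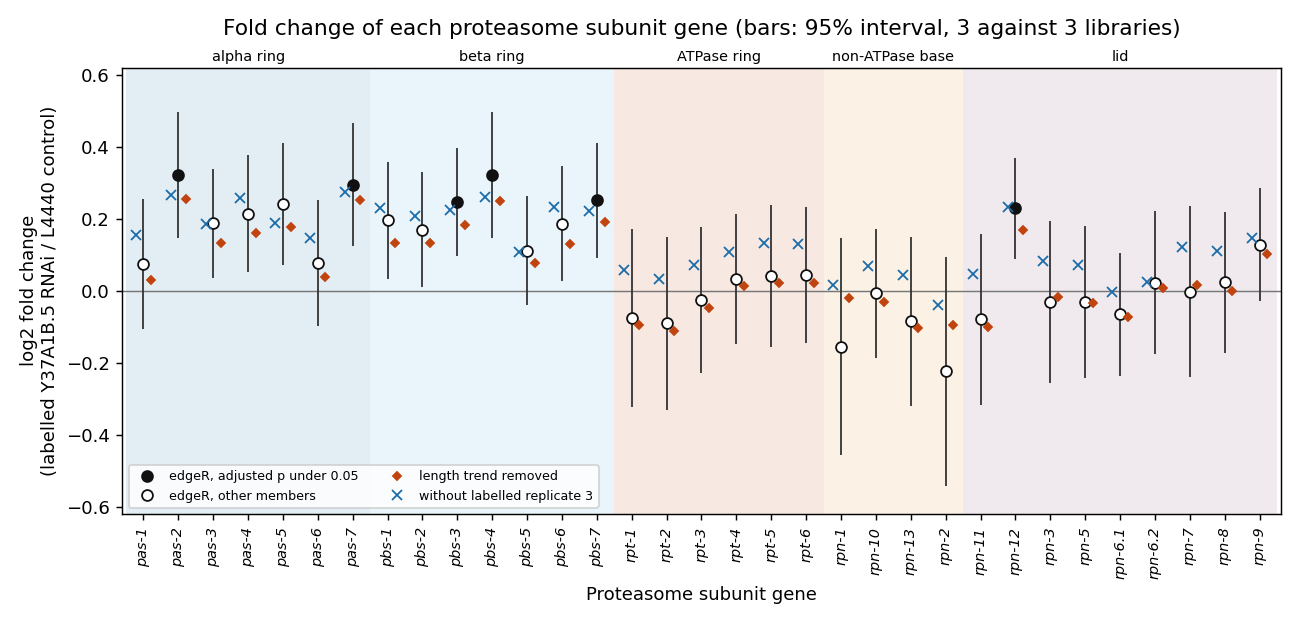
Log2 fold change of each member, libraries labelled Y37A1B.5 RNAi over L4440, from edgeR with its 95% interval (circles, filled where the adjusted p is under 0.05), with the length trend removed (diamonds) and without labelled replicate 3 (crosses). All 14 core genes lie above 0, between 0.07 (*pas-1*) and 0.32 (*pbs-4*), while among the regulatory genes only *rpn-12* is called.

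The alpha ring genes *pas-2* and *pas-7* were higher in the labelled libraries. *pas-2* had 148, 142 and 153 CPM in the controls and 170, 183 and 200 CPM in the labelled libraries. The groups did not overlap, and the highest value was that of labelled replicate 3. This is a log2 fold change of 0.32 (SE 0.079, edgeR adjusted p = 0.0266), or 24.9% with a 95% interval of 10.6% to 41.1%. *pas-7* had 181, 175 and 199 CPM in the controls and 225, 221 and 234.9 CPM in the labelled libraries, again without overlap, with a log2 fold change of 0.29 (SE 0.077, edgeR adjusted p = 0.0324).

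The other alpha subunit genes did not pass the threshold with edgeR. DESeq2 called *pas-3*, *pas-4* and *pas-5*, and without labelled replicate 3 edgeR called all 7 alpha genes. *pas-5* stood at 213, 219 and 216 CPM in the controls and 243, 247 and 276 CPM in the labelled libraries (log2 fold change 0.24, edgeR adjusted p = 0.0609). For *pas-3* and *pas-4* the log2 fold changes were 0.19 and 0.21 (edgeR adjusted p = 0.0898 and 0.0741), and neither overlapped between groups. *pas-1* and *pas-6* differed from the rest of the ring. Their labelled replicates 1 and 2 were above all controls, and their labelled replicate 3 was the lowest of all 6 libraries, at 151 CPM for *pas-1* and 179 CPM for *pas-6*. Their log2 fold changes were 0.07 and 0.08 (edgeR adjusted p = 0.555 and 0.519), and without labelled replicate 3 they were 0.15 for both.

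In the beta rings, *pbs-3*, *pbs-4* and *pbs-7* rose, and these are structural subunits without a proteolytic site. *pbs-4* was the member with the largest fold change, at 167, 171 and 178 CPM in the controls and 205, 206 and 234.8 CPM in the labelled libraries. Its log2 fold change was 0.32 (SE 0.079, edgeR adjusted p = 0.0263), or 25.0% with a 95% interval of 10.7% to 41.2%. *pbs-3* had 140, 138 and 140 CPM against 157, 167 and 172 CPM (log2 fold change 0.25, SE 0.068, edgeR adjusted p = 0.0388). *pbs-7* had 202, 205 and 212 CPM against 236, 242 and 257 CPM (log2 fold change 0.25, SE 0.072, edgeR adjusted p = 0.0449). For all 3 genes every labelled library was above every control, and the highest was labelled replicate 3. An exon of *pbs-7* overlaps an exon of K07A12.5 on the same strand, where the authors' counting left out reads that fall on both genes.

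The catalytic subunits are PBS-1, PBS-2 and PBS-5, which by their counterparts in yeast and mammals carry the caspase-like, trypsin-like and chymotrypsin-like activity. None of their genes passed the threshold with edgeR. DESeq2 called *pbs-1*, and without labelled replicate 3 edgeR called *pbs-1* and *pbs-2*. *pbs-1* had 201, 189 and 192 CPM in the controls and 218, 236 and 214 CPM in the labelled libraries. *pbs-2* had 177, 169 and 172 CPM against 190, 206 and 186 CPM, and *pbs-5* had 168, 171 and 165 CPM against 174, 187 and 184 CPM. The labelled libraries were above all controls for each of the 3 genes, by a margin that was smallest for *pbs-5*. The log2 fold changes were 0.20, 0.17 and 0.11, with SEs of 0.073, 0.072 and 0.068, and edgeR adjusted p values of 0.0951, 0.129 and 0.281. Their 95% intervals ran from 0.03 to 0.36, from 0.01 to 0.33 and from -0.04 to 0.26 on the log2 scale. They overlap those of the 3 structural subunits above, and a difference between catalytic and structural subunits was not tested. The last beta gene, *pbs-6*, had a log2 fold change of 0.19 (edgeR adjusted p = 0.104).

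Among the core genes, 12 of 14 did not overlap between groups, all of them higher in the labelled libraries. This was so for 15 of the 33 members and, in either direction, for 40.5% of all genes tested. For 14 members the labelled libraries were the higher ones, as they were for 18.4% of all genes. The 3 regulatory genes without overlap were *rpn-9* and *rpn-12*, which were higher, and *rpn-2*, which was lower.

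The ATPase ring is a hexamer of related unfoldases. None of its 6 genes was called by edgeR or DESeq2, and none was under 0.05 at the unadjusted p. Their log2 fold changes ran from -0.09 (*rpt-2*) to 0.04 (*rpt-6*). *rpt-2* had 339, 322 and 310 CPM in the controls and 323, 337 and 253 CPM in the labelled libraries, and *rpt-1* had 322, 314 and 316 CPM against 320, 337 and 246 CPM. For both genes the groups overlapped, since labelled replicates 1 and 2 were among or above the controls and labelled replicate 3 was the lowest of all 6 libraries. *rpt-6*, at 168, 161 and 172 CPM against 180, 184 and 152 CPM, was likewise lowest in labelled replicate 3, as were the other ATPase genes. The edgeR adjusted p values were 0.59 for *rpt-2*, 0.664 for *rpt-1* and 0.752 for *rpt-6*. The 95% interval of *rpt-2* ran from -0.33 to 0.15 on the log2 scale and that of *rpt-6* from -0.15 to 0.23. The latter includes the median of the core genes.

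Of the 4 non-ATPase base genes none was called by edgeR or DESeq2, none was under 0.05 at the unadjusted p, and all 4 had a log2 fold change below 0. RPN-1 and RPN-2 are the large scaffold proteins of the base. *rpn-2* had 466, 459 and 457 CPM in the controls and 448, 444 and 292 CPM in the labelled libraries, and *rpn-1* had 502, 496 and 492 CPM against 493, 507 and 338 CPM. In both genes most of the difference stood in labelled replicate 3, although the labelled libraries of *rpn-2* were all below its controls. The log2 fold changes were -0.22 (SE 0.143, edgeR adjusted p = 0.299) and -0.15 (SE 0.136, edgeR adjusted p = 0.451). Without labelled replicate 3 they were -0.04 and 0.02.

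RPN-10 and RPN-13 are the ubiquitin receptors of the base, and RPN-10 is also known in *C. elegans* for its part in germline sex determination. *rpn-10* had 165, 162 and 154 CPM in the controls and 165, 170 and 144 CPM in the labelled libraries, with overlapping groups and a log2 fold change of -0.01 (edgeR adjusted p = 0.962). *rpn-13* had 173, 167 and 172 CPM against 170, 180 and 132 CPM, with a log2 fold change of -0.08 (edgeR adjusted p = 0.607).

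In the lid, *rpn-12* was the only gene that rose. It had 130, 125 and 129 CPM in the controls and 149.5, 149.9 and 150.2 CPM in the labelled libraries. The 3 labelled libraries were nearly equal and all above the controls, and the log2 fold change was 0.23 (SE 0.063, edgeR adjusted p = 0.0399). RPN-12 is, in yeast, the last subunit to join the lid. *rpn-9* had 288, 293 and 301 CPM in the controls and 320, 328 and 316 CPM in the labelled libraries. These groups did not overlap either, but the log2 fold change of 0.13 did not pass the threshold (SE 0.071, edgeR adjusted p = 0.232).

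Ectopic *rpn-6.1* is known to raise proteasome activity and resistance to proteotoxic stress in *C. elegans*. Here *rpn-6.1* had 221, 223 and 227 CPM in the controls and 220, 225 and 197 CPM in the labelled libraries, with a log2 fold change of -0.07 (95% interval -0.24 to 0.10, edgeR adjusted p = 0.579). Its paralog *rpn-6.2* had 15.1, 16.1 and 13.5 CPM against 15.16, 14.996 and 15.19 CPM (log2 fold change 0.02, edgeR adjusted p = 0.883). The groups overlapped for both genes. RPN-11, the deubiquitinase of the lid, and its partner RPN-8 had log2 fold changes of -0.08 and 0.02, and *rpn-3*, *rpn-5* and *rpn-7* lay between -0.03 and -0.00.

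Core and regulatory genes stood differently in the labelled libraries. The plot of subcomplex medians in each library gives the log2 of the CPM over the control mean. The alpha ring median was 0.19, 0.19 and 0.21 in labelled replicates 1 to 3, and the beta ring median was 0.18, 0.26 and 0.14. The corresponding medians of the ATPase ring were 0.05, 0.11 and -0.18, those of the non-ATPase base were -0.01, 0.05 and -0.46, and those of the lid were 0.05, 0.08 and -0.19. The core medians were thus above the controls in all 3 labelled libraries, whereas the regulatory medians were near or slightly above the controls in 2 of them and below in labelled replicate 3. In labelled replicates 1 and 2 all 14 core genes were above every control, and so were 9 and 15 of the 19 regulatory genes. In labelled replicate 3, 12 core genes were above every control and 16 regulatory genes were the lowest of all 6 libraries. The same counts were not taken over all genes tested, so they are not set against a background share. The median over all genes tested was -0.005, -0.014 and -0.058 in labelled replicates 1 to 3.

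**Figure D3:**
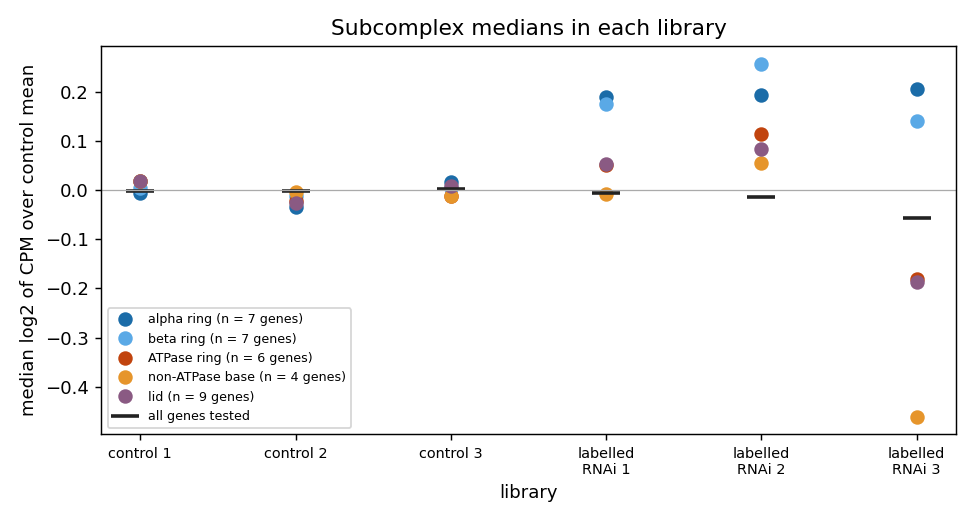
Median over the genes of each subcomplex of the log2 of CPM over the control mean, in each of the 6 libraries, with the median over all genes tested as a bar. The alpha and beta rings lie between 0.14 and 0.26 in all 3 labelled libraries, and the ATPase ring, the non-ATPase base and the lid fall to between -0.46 and -0.18 in labelled replicate 3.

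Summed over genes, the core particle took 2506, 2463 and 2543 CPM in the controls and 2836, 2933 and 2909 CPM in the labelled libraries. The regulatory particle took 5063, 4940 and 4980 CPM against 5149, 5288 and 4150 CPM. The ratio of the 2 sums was 0.495, 0.499 and 0.511 in the controls and 0.551, 0.555 and 0.701 in the labelled libraries. These ratios did not overlap between groups, and that of labelled replicate 3 was the highest. All members together took 0.753%, 0.741% and 0.755% of the counts in the controls and 0.785%, 0.782% and 0.753% in the labelled libraries. These totals include ribosomal RNA, which is not equal between libraries. The ribosomal RNA gene *rrn-3.1* alone took 7.24%, 7.58% and 6.93% of the counts in the controls and 7.40%, 9.23% and 9.21% in the labelled libraries.

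Transcript length moved with the fold change. The core genes are short, with longest transcripts of 801 to 1059 bp, and *rpn-12*, at 855 bp, is the shortest regulatory gene, where the others run from 1234 bp (*rpn-8*) to 3171 bp (*rpn-1*). Across the 33 members Pearson's r between log2 fold change and log2 length was -0.88 and Spearman's rho was -0.88. It was -0.64 and -0.68 within the core genes, -0.77 and -0.55 within the regulatory genes, and -0.27 and -0.28 over the 14919 tested genes with a length. These are values across genes of the same 6 libraries, which are not independent, and length goes with subcomplex here. All tested genes were ordered by length and divided into 10 bins of about equal size. The median log2 fold change went from 0.09 in the bin of the shortest to -0.25 in that of the longest genes. In labelled replicate 3 the same medians, of log2 CPM over the control mean, went from 0.17 to -0.49, against 0.03 to -0.13 in labelled replicate 1 and 0.08 to -0.14 in labelled replicate 2.

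Set beside genes of like length, the short members were still on the higher side. In the bin of 784 to 984 bp the median log2 fold change was 0.23 over its 12 members and 0.05 over all its 1496 genes. In the bin of 1351 to 1571 bp it was -0.00 over 8 members and 0.01 over 1489 genes, and in the bin of the longest genes it was -0.19 over *rpn-1* and *rpn-2* and -0.25 over 1492 genes. Once the length trend of each library was taken out, 5 members were called, all higher, beside 5.29% of all genes: *pas-2*, *pas-7*, *pbs-3*, *pbs-4* and *pbs-7*, with *rpn-12* lost. The subcomplex medians were then 0.16 (alpha ring), 0.13 (beta ring), -0.02 (ATPase ring), -0.06 (non-ATPase base) and -0.00 (lid), so that the core medians became smaller and were still above those of the regulatory particle. The members' log2 fold changes still went with length after this removal, at r = -0.74 and rho = -0.80 across all 33. Within the core genes the values were -0.54 and -0.51, and within the regulatory genes -0.40 and -0.23. With the trend taken out and labelled replicate 3 also left out, a combination chosen after the data were seen, 13 members were called higher, beside 7.41% of all genes. These were 12 core genes and *rpn-12*. The subcomplex medians were 0.16, 0.20, 0.08, 0.05 and 0.09 in the same order. The part of length in the difference between core and regulatory genes was not tested beyond these values.

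**Figure D4:**
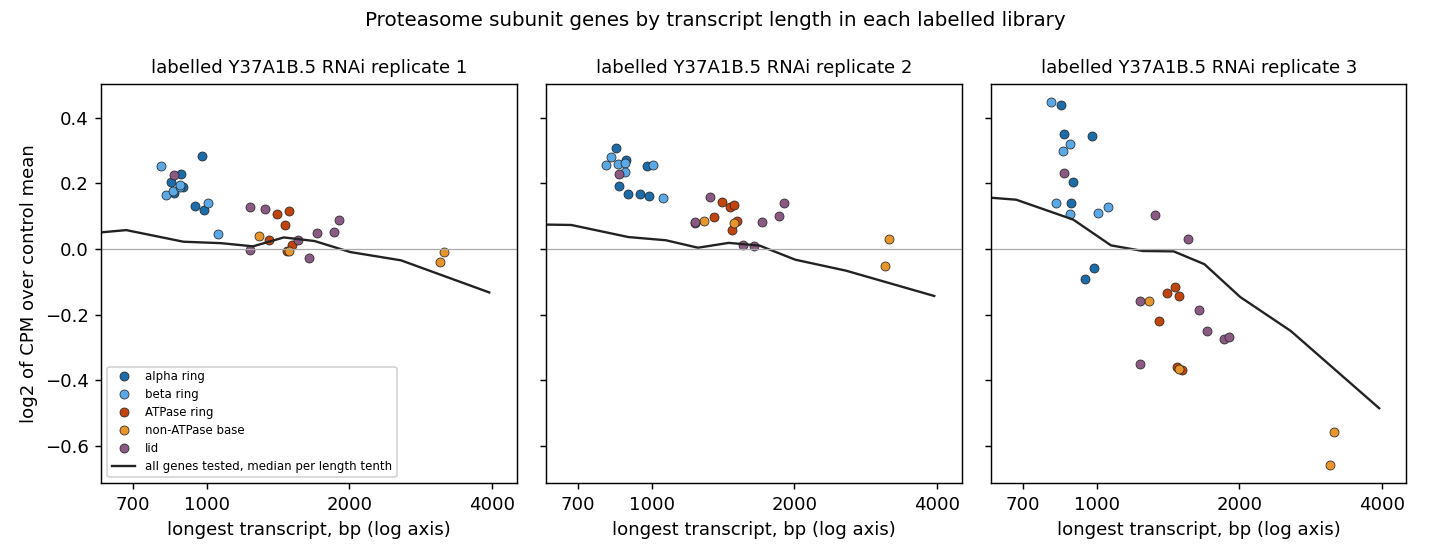
Log2 of CPM over the control mean for each member in each labelled library, against the length of its longest transcript on a log axis, coloured by subcomplex, with the median of all tested genes in 10 bins of length as a line. All 14 core genes, at 801 to 1059 bp, lie above the line in labelled replicates 1 and 2 and 12 of them in labelled replicate 3. Of the 19 regulatory genes, 13 and 17 lie above it in labelled replicates 1 and 2, and 16 lie below it in labelled replicate 3.

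The members are spread over the genome. In the WBcel235 assembly with the Ensembl release 115 annotation, 10 lie on chromosome I, 7 on II, 8 on III, 3 on IV and 5 on V. *pbs-4* lies on the plus strand of chromosome I from 3908747 to 3909701 with 4 exons, *pas-2* on the plus strand of V from 10770368 to 10771351 with 4 exons, and *pas-7* on the minus strand of II from 10098782 to 10099854 with 3 exons. *pbs-3* (II, 4954480 to 4955427), *pbs-7* (I, 8695205 to 8696301) and *rpn-12* (II, 11653124 to 11654192) complete the members called. A protein-coding gene lies on the same strand within 500 bp of 16 members, and the share over all genes was not computed. For *pbs-3* that neighbour is *ulp-2*, 23 bp away on the upstream side. Of the 33 members, 25 have a single annotated transcript. Promoter sequence was not analysed here.

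Of 9 genes of the SKN-1A pathway none was called by edgeR or DESeq2, 1 was under 0.05 at the unadjusted p, and the median log2 fold change was 0.03. Without labelled replicate 3 edgeR called *sel-11* higher (log2 fold change 0.15), and with the length trend also removed it called *sel-11* and *ire-1*. *skn-1*, counted over all its isoforms, had 315, 296 and 320 CPM in the controls and 310.3, 301 and 227 CPM in the labelled libraries (log2 fold change -0.15, edgeR adjusted p = 0.377). *png-1* had 43.9, 41.7 and 45.6 CPM against 47.1, 47.4 and 53.9 CPM, without overlap, and did not pass the threshold (log2 fold change 0.18, edgeR adjusted p = 0.133). *ddi-1* (0.04, edgeR adjusted p = 0.716) and *wdr-23*, which encodes a repressor of SKN-1 (0.03, edgeR adjusted p = 0.804), had smaller log2 fold changes.

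Among 8 partner genes of the proteasome, *psmd-9* rose. Its mammalian counterpart is a chaperone that helps to assemble the ATPase ring. It had 40.1, 41.2 and 47.8 CPM in the controls and 53.6, 51.7 and 59.2 CPM in the labelled libraries, with a log2 fold change of 0.35 (SE 0.087, edgeR adjusted p = 0.0271). With a longest transcript of 683 bp it is also short, and its log2 fold change was 0.26 with the length trend removed. Over the alternatives its adjusted p lay between 0.000816 and 0.119. DESeq2 also called *aip-1* higher (log2 fold change 0.26), and without labelled replicate 3 edgeR called *hecd-1* lower (-0.35). With a replicate block all 3 were called. *sel-11*, *ire-1*, *aip-1* and *hecd-1* were picked out with their values known. The proteasome activator gene *psme-3*, looked at after its values were seen, had a log2 fold change of 0.15 (edgeR adjusted p = 0.205).

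The enzymes upstream of the proteasome mostly did not pass the threshold. Among 22 tested genes for ubiquitin-conjugating enzymes and their variants, *uev-1* and *ubc-7* rose, both with a log2 fold change of 0.26 (edgeR adjusted p = 0.0296 and 0.0476), and none was lower. With the length trend removed *uev-1* was no longer called (log2 fold change 0.17), and neither gene was called with upper-quartile factors or with scaling to reference genes. The 27 tested cullin, RBX and SKR genes encode parts of ubiquitin ligases. Of these, 2 rose and 5 fell, all of them *skr* genes, beside 4.81% and 8.85% of all genes tested. Those with the smallest adjusted p were *skr-7* (-0.44, edgeR adjusted p = 0.0148), *skr-19* (-0.36, 0.0175) and *skr-17* (0.28, 0.0264), given as log2 fold changes. None was called by edgeR among 12 genes of the CDC-48 complex, 9 genes for ubiquitin and its activating enzymes and 22 genes of deubiquitinases, of which 1, 1 and 3 were under 0.05 at the unadjusted p and DESeq2 called 1, 1 and 0. With the length trend removed the cullin, RBX and SKR genes called became 1 higher and 11 lower, again all *skr* genes. Over all 14919 genes, 789 were then higher and 1386 lower.

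Other large complexes were read in the same way. The COP9 signalosome (6 genes, median log2 fold change 0.07) and eIF3 (11 genes, -0.04), which share their architecture with the lid, had no gene called by edgeR, 0 and 1 under 0.05 at the unadjusted p, and 0 and 1 called by DESeq2. The CCT chaperonin (8 genes, -0.07) and the cytosolic ribosomal proteins (81 tested genes, 0.07) had none called by edgeR either, with 0 and 16 under 0.05 at the unadjusted p. These unadjusted counts take both directions, and of all 15003 genes tested 2143 were higher and 2823 lower at that threshold. Of the ribosomal protein genes, however, 16 were called higher by DESeq2 and 15 by edgeR without labelled replicate 3. The shares over all genes were 9.87% and 7.89%. Of 20 genes of the vacuolar ATPase (0.07) edgeR called *vha-18*, with a log2 fold change of 0.30 (adjusted p = 0.0472), and 6 were under 0.05 at the unadjusted p. DESeq2 also called *vha-4*, edgeR with the length trend removed also called *vha-7* (both named after their values were seen), and with upper-quartile factors none was called. The core particle had 5 of 14 called and a median of 0.21.

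Markers of the tissues of the worm were read beside these results. Their summed levels were 6895 to 7797 CPM in the controls and 6033 to 8279 CPM in the labelled libraries for 10 germline and oocyte genes, and 20603 to 27101 CPM against 12772 to 23922 CPM for 8 intestinal genes. None of these was called in the main edgeR fit, 0 and 2 were under 0.05 at the unadjusted p, and DESeq2 called 0 and 1. Over all 15003 genes tested, 2143 were higher and 2823 lower at the unadjusted p. DESeq2 called 1208 higher and 1299 lower of 12238 genes. The germline and intestinal medians of log2 fold change were 0.002 and -0.069 in the main fit. With at least 1 count as the only filter, edgeR called *asp-1* and *ges-1* higher. In that fit *vit-2* and *vit-6* were called lower (log2 fold changes -0.37 and -0.28). Without labelled replicate 3 edgeR called *oma-2*, *asp-1* and *ges-1* higher, beside 7.89% of all genes. The germline and intestinal medians of log2 fold change were then 0.155 and 0.032, beside 0.131 over the proteasome members. With the length trend also removed edgeR called *gld-1*, *glh-1*, *oma-2*, *pgl-1*, *rme-2*, *cbd-1*, *asp-1* and *ges-1* higher, beside 7.41% of all genes. These genes were named with their values known. The 6 sperm genes, 3 of them too low to be tested, summed to 0.85 to 1.71 CPM against 0.89 to 1.799 CPM. For 7 epidermal genes the sums were 181 to 201 CPM against 157 to 189 CPM, with a median log2 fold change of -0.20. Of these, *col-19* was higher, and *dpy-13* and *rol-6* were called lower without labelled replicate 3. For 7 body wall muscle genes the sums were 565 to 643 CPM against 523 to 590 CPM, with a median log2 fold change of -0.02. Of these, *unc-27* was higher, *myo-3* was called lower by DESeq2, and *act-4* was called lower with the length trend removed and, separately, without labelled replicate 3. For 8 neuronal genes the sums were 289 to 308 CPM against 271 to 287 CPM, with *sbt-1* lower, and for 8 embryonic genes 39.7 to 48.7 CPM against 36.0 to 41.0 CPM, with *ceh-27* and *tbx-38* lower. The neuronal sums did not overlap between groups, and the germline, intestinal, epidermal, muscle and embryonic sums did. No marker was at 0 in all 6 libraries. The part of these markers in the values of the proteasome genes was not tested.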

How the data were processed

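RNA was extracted with Trizol and libraries were made with a stranded mRNA kit (TruSeq). The values the authors deposited are raw counts, 1 per gene and library. Per the labels and the paper, they used bcl2fastq 1.8.4, mapped with TopHat2 2.1.0 to WBcel235 and counted reads that fall uniquely on 1 gene and its strand with featureCounts 1.5.0, so that reads shared by paralogs or overlapping genes are lost.

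The deposited counts of all 6 columns were tested with edgeR 4.0.16 (R 4.3.3; TMM, filterByExpr with minimum count 10 and minimum total 15, quasi-likelihood test, Benjamini-Hochberg adjustment over the 15003 genes that passed). A gene was called at an adjusted p under 0.05. Log2 fold changes, their SEs and 95% intervals came from this fit, without a replicate block. CPM were computed on the TMM scale and given as mean ± SD, or per kb of merged exon. The precision is that of 34403223 to 46733527 counts per library, and counting errors cover counting only. The study describes independent experiments, and p values measure the spread between these libraries. Lengths and positions were read from the WBcel235 annotation of Ensembl 115, a later release than the one the authors counted with, and symbols from a gene name table that covers 93.5% of the genes. The symbol *duo-2* found no gene. The length trend was a loess fit (span 0.5) of each library's log2 CPM on log2 length of the longest transcript, used as an offset. The script was tested on simulated data.

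The members were taken by symbol alone, while the family, lists and tests were set with earlier results of these data known. Every member is named. Values in every library are given for the catalytic subunits, *rpn-6.1*, *rpn-6.2*, *rpn-10* and the 3 members of each subcomplex with the lowest adjusted p. Each list gives up to 3 of its called genes, those lowest in adjusted p, besides *skn-1*, *ddi-1*, *png-1*, *wdr-23* and the targeted gene. Alternatives were DESeq2 1.42.0, other scaling factors and filters, scaling to the reference genes *pmp-3*, *tba-1* and *cdc-42*, a replicate block, removal of the length trend and leaving out each library.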

Additional observations from a re-analysis of the deposited data

How the results depend on the processing

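All 33 members were run under 15 alternatives, which gives 495 values of member and alternative. Of these, 394 kept their direction and their side of the threshold, 33 lost and 24 gained a call, and 44 changed sign, all of them in regulatory particle genes without a call. The cause was not tested. Over all genes, 3298 were called with at least 1 count as the only filter, 1349 after scaling to the 3 reference genes, and 727 to 2811 when 1 library was left out, beside 2050. Of the members, 3 were called with upper-quartile factors, 11 with DESeq2, 13 with the length trend removed and labelled replicate 3 left out, and 0 to 15 when 1 library was left out, beside 6. No member was called lower in any of them.

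With a replicate block, 3 members (*pas-2*, *pas-7* and *pbs-4*) and 2917 genes were called. Deviations from the group means correlated by 0.135, 0.0626 and 0.121 across genes for libraries of the same number and by -0.146 to 0.0357 for others. Every library correlated best with its own number, but the second pair was under 0.1, and the numbers were not taken as pairs.

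The log2 fold changes that changed sign reached 0.13 (*rpn-7*), and that of *rpn-1* went from -0.15 in the main fit to 0.10. With DESeq2 they were 0.0057 (*rpt-3*), 0.023 (*rpn-10*) and 0.028 (*rpn-7*). With RLE factors they were 0.011 (*rpn-10*) and 0.016 (*rpn-7*), with the looser filter 0.0087 (*rpn-10*) and 0.014 (*rpn-7*), and with the reference genes 0.012 (*rpn-10*) and 0.013 (*rpn-7*). With upper-quartile factors they were -0.00077 (*rpt-4*), -0.011 (*rpn-6.2*), -0.011 (*rpn-8*) and -0.0062 (*wdr-23*). With the length trend removed they were 0.017 (*rpn-7*) and -0.00060 (*rpn-8*). With the trend removed and labelled replicate 3 left out they were 0.043 (*rpt-1*), 0.018 (*rpt-2*), 0.057 (*rpt-3*), 0.10 (*rpn-1*), 0.040 (*rpn-2*), 0.088 (*rpn-3*), 0.066 (*rpn-5*), 0.13 (*rpn-7*), 0.058 (*rpn-10*), 0.038 (*rpn-11*), 0.030 (*rpn-13*) and 0.039 (*skn-1*).

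With 1 library left out, log2 fold changes ran from -0.16 to 0.057 (*rpt-1*), -0.17 to 0.033 (*rpt-2*), -0.090 to 0.071 (*rpt-3*), -0.017 to 0.11 (*rpt-4*), -0.0073 to 0.13 (*rpt-5*), -0.0081 to 0.13 (*rpt-6*), -0.26 to 0.017 (*rpn-1*), -0.10 to 0.083 (*rpn-3*), -0.092 to 0.072 (*rpn-5*), -0.043 to 0.083 (*rpn-6.2*), -0.078 to 0.12 (*rpn-7*), -0.017 to 0.11 (*rpn-8*), -0.056 to 0.069 (*rpn-10*), -0.17 to 0.046 (*rpn-11*) and -0.17 to 0.044 (*rpn-13*). The search for letters in promoters was not run, since promoter sequence was not analysed here. The counting error in the controls, 0.75% to 1.48% for 32 members, was at or above the spread between the controls for *pas-3*, *pbs-3* and *rpt-4*, and above the spread between the labelled libraries for *rpn-12*.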
